A study of Mus musculus with 31 samples.

Results

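Parathymic lobes (PTL) are enlarged lobes found beside the thymus of GIT2KO mice, and their transcripts were set here against those of the thymus of wild-type (WT) mice to ask what kind of organ their messages describe. The members are the 3 samples whose tissue label reads extra lymph nodes, a name taken here to mean PTL, and the 3 WT thymus samples, 6 of the 27 samples of the series. They lie on 7 of the 31 arrays, since WT thymus 1 was hybridized again and its pair of arrays was averaged. All mice were male, on a C57BL/6 background and 12 months old, and were fasted before they were killed. GIT2KO mice are homozygous for a gene trap in Git2, whose protein is a scaffold and a GTPase-activating protein for small GTPases of the ARF family. PTL 1 and PTL 2 came from animals that also gave a thymus, lymph nodes and a spleen, and PTL 3 came from an animal with no other sample here. WT mice had no PTL, so the tissue and the genotype cannot be told apart in PTL minus WT thymus. For that reason the 3 GIT2KO inguinal lymph nodes (ILN) and the 3 GIT2KO thymi are given beside it.

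The thymus turns blood-borne precursors into T cells. In its cortex, epithelial cells that carry keratins 8 and 18 feed and select thymocytes that rearrange their antigen receptor genes, and in its medulla other epithelial cells display tissue antigens under the control of Aire. A lymph node receives finished lymphocytes instead, through high endothelial venules and lymph vessels, and sorts them into B cell follicles and T cell zones by means of chemokines made by its stroma, while sinus macrophages filter the lymph. Cells were not sorted, so a lower signal can reflect fewer cells of a type or less RNA per cell, and the arrays cannot tell these apart.

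The arrays were Illumina MouseRef-8, on which each probe reports the brightness of 1 transcript. Mean signal was 277.3 to 485 on the PTL arrays and 343.1 to 513.2 on the WT thymus arrays, and 48.01% to 51.5% of the probes were above background on each. All values below are background-corrected, quantile-normalized log2 signals, and differences are log2 differences from 1 limma fit of all 9 groups, with p-values adjusted by Benjamini-Hochberg over the 15053 transcripts tested. The p-values rest on a spread between samples that was estimated over all 9 groups together. For a gene that varies more in PTL or WT thymus than elsewhere, they therefore understate the spread of the samples compared. PTL 3 stood somewhat apart: its transcripts differed from those of PTL 1 and 2 with an SD of 0.57 to 0.633, against 0.394 between PTL 1 and 2 and 0.353 to 0.433 among the WT thymi. Between a PTL and a WT thymus the SD was 0.97 to 1.098. Git2 itself was 6.27, 6.51 and 6.27 in PTL 1 to 3 and 9.12, 9.13 and 9.05 in WT thymus 1 to 3, a difference of -2.75 (SE 0.17, adjusted p = 5.15e-12) in limma, and its other 2 probes were lower too.

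The organs differed in 47.2% of the transcripts tested. In limma, 3430 transcripts were higher in PTL and 3671 lower, that is 22.8% and 24.4% of those tested, and 1611 and 1510 of them differed by over 2-fold. Whether called or not, 53% of the transcripts had 3 PTL values that did not overlap the 3 WT thymus values, 25.3% with PTL above and 27.8% with PTL below. These shares are the background for every gene group below. Group medians are of fitted differences. With genes undetected in 1 organ set at the bound of their fold, the median went from -3.93 to -3.48 for cortical epithelium, from 1.86 to 1.55 for mast cells and from 1.77 to 1.33 for lymphatic endothelium, and moved by less in the other groups whose medians are given. The largest drops were in genes of thymocytes and thymic epithelium, and the largest rises in genes of sinus macrophages, high endothelial venules and lymphoid stroma.

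The machinery of receptor gene rearrangement was lower in PTL. Of 11 V(D)J recombination genes tested, 8 were lower and 1 was higher, with a median difference of -1.38, where all transcripts had a median of 0.003. Rag1, a subunit of the recombinase that cuts antigen receptor genes, was 5.38, 5.20 and 5.99 in PTL and 12.19, 12.07 and 12.16 in WT thymus, a difference of -6.62 (SE 0.21, adjusted p = 6.32e-18). Its partner Rag2 was 4.50, 4.51 and 4.52 in PTL, undetected in all 3, and 8.26, 8.38 and 8.26 in WT thymus, at least 7.57-fold lower. Every PTL lay far below every WT thymus for both subunits. Dntt, the polymerase that adds untemplated bases at the joints, was at 4.62, 4.66 and 4.70 against 10.50, 10.70 and 10.03, at least 32.6-fold lower and likewise undetected in PTL. The end-joining factors Lig4 and Xrcc6 were lower by differences of -2.50 and -2.77, while the polymerase Poll was higher (0.96).

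Genes of CD4+CD8+ (double-positive) thymocytes, the main population of the cortex, were lower without exception among those tested, 12 of 12, with a median difference of -2.30. Arpp21, a phosphoprotein gene active in immature thymocytes, was 4.57, 4.58 and 5.37 in PTL and 12.43, 12.37 and 11.96 in WT thymus, at least 117-fold lower. The coreceptor gene Cd8b1 was 12.30, 12.42 and 12.04 against 14.31, 14.44 and 14.30, a difference of -2.10 (SE 0.15, adjusted p = 4.01e-11), so it kept a strong signal in PTL although no value overlapped. Cd4 went from 9.14, 9.28 and 8.80 in WT thymus to 6.61, 6.28 and 7.09 in PTL, a difference of -2.41. Also lower were the chromatin organizer Satb1 (-2.03), the selection adaptor Themis (-2.98), the water channel Aqp11 (-5.06) and the transcription factor Ets2 (-2.49). Endou, which encodes an endoribonuclease, showed a PTL 3 that stood above the other PTL, at 5.75, 5.74 and 7.46, still below the 11.04, 11.29 and 10.93 of WT thymus.

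Receptor signaling genes that all T cells share were lower as well, by smaller steps. Of 19 tested, 16 were lower and none higher, with a median of -1.25. Cd3e, a signaling chain of the T cell receptor, was 10.67, 10.89 and 10.73 in PTL and 12.30, 12.33 and 12.21 in WT thymus, a difference of -1.52 (SE 0.13, adjusted p = 2.37e-09). The adaptor Lat (-2.40), the kinase Zap70 (-1.33, with another of its probes at -0.44 not passing) and Thy1, a surface protein of all mouse T cells (-2.33), were lower too, and Cd2 did not pass (0.13, adjusted p = 0.507). None of the 19 differed between PTL and GIT2KO ILN at this threshold, a count near the 4.34% of all transcripts that did.

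In contrast, genes of mature, recirculating T cells were higher. Of 13 tested, 11 were higher and none lower, with a median of 1.17. Klf2, the factor that switches on thymic exit, was 11.53, 11.80 and 11.77 in PTL and 9.51, 9.49 and 10.25 in WT thymus, a difference of 1.95 (SE 0.17, adjusted p = 2.53e-09). Cxcr3, a chemokine receptor of effector T cells, was 9.21, 9.34 and 8.94 against 7.64, 6.64 and 7.79 (1.80). All PTL values lay above all WT thymus values for these 2 genes. Ccr7, which guides T cells and dendritic cells into nodes, rose by 1.17 and the chemokine Ccl5 by 2.05. Il7r rose by 0.74, but its call was lost without PTL 1, PTL 3 or WT thymus 2, and was 0.33 without the last, and its other probe did not pass (0.24, adjusted p = 0.534). Among 16 genes of regulatory and follicular helper T cells 6 were higher and 1 lower, with Foxp3, the master factor of regulatory T cells, at 8.29, 8.48 and 8.52 against 7.03, 6.70 and 7.12 (1.48), and the related factor Ikzf2 lower (-1.42). Of 12 NK and cytotoxic genes 7 were higher and 1 lower, led by the inhibitory receptor Klrg1 (at least 2.51-fold) and the granule protein Nkg7 (1.98).

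The list of early T progenitor and double-negative thymocyte genes split. Of 19 tested, 11 were higher and 5 lower, with a median of 0.79. Kit and Tcf7 had no probe under their symbol, and Flt3, Erg, Mycn and Hoxa9 were below the detection filter, so these members could not be compared. Among the lower ones, Bcl11b, the factor of T lineage commitment, was 10.96, 10.69 and 10.95 in PTL and 13.65, 13.99 and 13.68 in WT thymus, a difference of -2.90 (SE 0.22, adjusted p = 1.92e-10). Gata3 (-2.28), Ptcra, the surrogate alpha chain of the pre-T cell receptor (-1.21), and Notch1 (-1.06) were lower too. The higher members were the transcription factors Lmo2 (2.85), Hhex (2.49), Lyl1 (2.04), Spi1 (1.95) and Bcl11a (1.94) among others. Outside the thymus Spi1 is known in myeloid cells and B cells, Bcl11a and Hhex in B cells, and Lmo2 and Lyl1 in endothelium or B cells. Which cells of the lobes carried these messages, early T progenitors included, was not tested.

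Thymic cortical epithelium had the lowest median of the gene lists. Of 10 cortical epithelial genes tested, 7 were lower and 2 higher, with a median of -3.93. Keratin 8 (Krt8) was 4.79, 5.02 and 5.17 in PTL and 11.51, 11.41 and 11.74 in WT thymus, undetected in every PTL and at least 72.2-fold lower. Its partner Krt18 was 4.58, 4.61 and 4.83 against 10.98, 11.19 and 11.03, at least 51.6-fold lower. Tbata, a gene of thymic epithelium and testis, was lower still, at 4.55, 4.58 and 5.04 against 12.37, 12.77 and 12.74, at least 152-fold. The groups were separated by more than any spread among samples for all of these. Prss16, the thymus-specific serine protease, was at least 21.9-fold lower, and Ccl25, the chemokine that draws precursors into the cortex, fell from 12.95, 13.64 and 13.25 to 6.52, 6.12 and 7.13, a difference of -6.69 (SE 0.24, adjusted p = 7.56e-17). The growth factor Kitl (1.36) was higher, and so was the Notch ligand Dll4 (0.61), whose call was lost without PTL 3. Both are made by endothelium as well.

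Medullary epithelial and keratinized-cell genes were lower in 11 of 11 tested, with a median of -2.70. Aire, which drives the display of tissue antigens, was 5.58, 5.66 and 5.85 in PTL and 8.10, 7.96 and 9.13 in WT thymus, a difference of -2.70 (SE 0.40, adjusted p = 5.4e-06). Its companion Fezf2 was undetected in PTL and at least 3.38-fold lower. Basal keratins followed, with Krt5 at 4.54, 4.60 and 4.60 against 8.86, 8.04 and 9.45, Krt17 at least 54.4-fold lower and Krt14 lower (-5.70). Trp63, the p53 relative that maintains epithelial stem cells, was at least 38.4-fold lower and the claudin Cldn4 at least 12.4-fold. Krt8, Krt18, Krt5, Krt17, Prss16, Pax1 and Fezf2 were below detection in all 3 lobes, whereas Aire was detected in all 3 at a low level and Krt14 in 1.

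**Figure D1:**
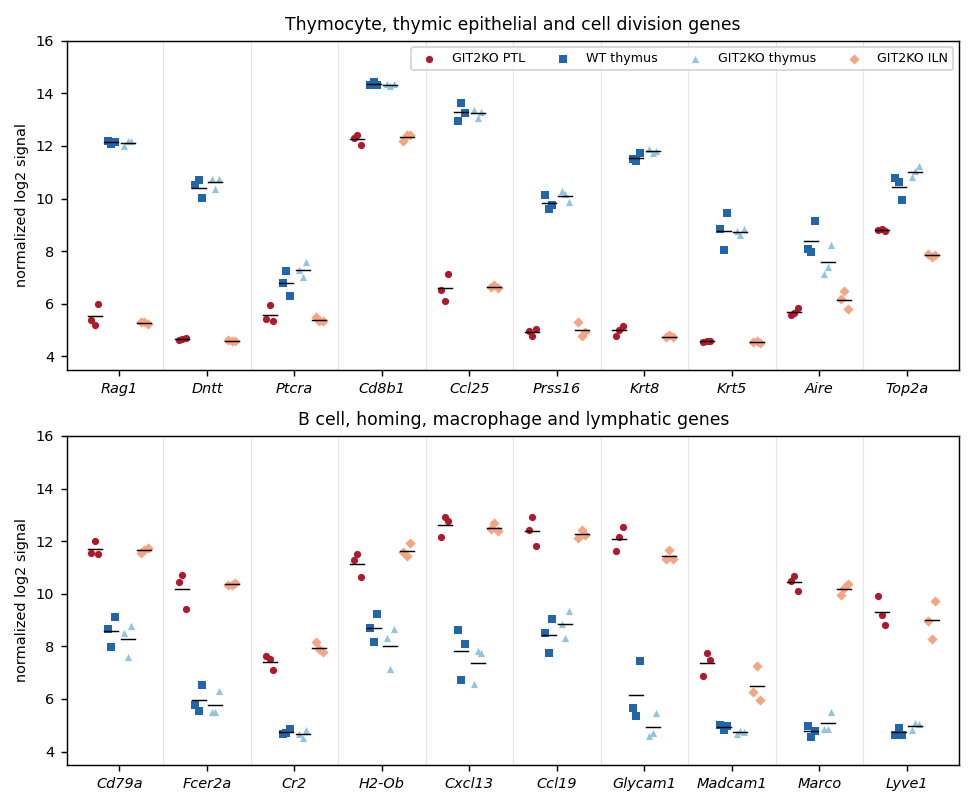
Normalized log2 signal of 20 leading genes in each sample of GIT2KO PTL, WT thymus, GIT2KO thymus and GIT2KO ILN (points, 3 per group, with the mean as a bar). In the upper panel PTL lie near the ILN and below both thymus groups, and in the lower panel they lie near the ILN and above them.

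Genes of B cells were higher in PTL in 21 of 21 tested, with a median of 2.67. Cd79a, a signaling chain of the B cell receptor, was 11.56, 12.01 and 11.50 in PTL and 8.65, 7.97 and 9.10 in WT thymus, a difference of 3.12 (SE 0.26, adjusted p = 7.69e-10). Fcer2a, the low-affinity IgE receptor (CD23) of follicular B cells, was 10.45, 10.72 and 9.43 against 5.79, 5.55 and 6.52, a difference of 4.24 (SE 0.27, adjusted p = 6.68e-12). Complement receptor 2 (Cr2), shared by B cells and follicular dendritic cells, was 7.65, 7.51 and 7.10 in PTL with no detected signal in WT thymus, a rise of at least 4.05-fold. No PTL value overlapped a WT thymus value for any of the 21. Ms4a1 (CD20) rose by 2.61, Cd22, a brake on receptor signaling, by 2.86, Vpreb3 by 3.79 and Tnfrsf13c, the receptor of the survival factor BAFF, by 3.06. Against GIT2KO ILN none of the 21 passed, a count near the 4.34% of all transcripts that did, and their median difference was -0.26. Germinal center genes did not follow: of 8 tested, 2 were higher and 3 lower, and Bcl6, the master factor of germinal centers that cortical thymocytes also express, was 11.12, 11.02 and 9.74 against 11.89, 11.98 and 11.98 (-1.32).

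Genes that load and present peptides on MHC class II were higher in 12 of 12 tested, with a median of 1.33. H2-Ob, a chain of the peptide-loading regulator H2-O of B cells, was 11.29, 11.52 and 10.63 in PTL and 8.69, 8.16 and 9.25 in WT thymus, a difference of 2.45 (SE 0.28, adjusted p = 1.39e-07). Ciita, the coactivator of the class II chain genes, was 10.74, 10.88 and 10.55 against 9.19, 8.97 and 9.77, a difference of 1.41 (SE 0.18, adjusted p = 6.44e-07). The classical chain H2-Eb1 was 12.93, 13.37 and 13.15 against 12.27, 11.76 and 12.82 (0.87), with a narrow gap between the groups. H2-Aa (0.75) lost its call without WT thymus 2 (0.44), and H2-Ab1 (0.56) without WT thymus 2 (0.24) or PTL 2. The values of 11 of the 12 genes did not overlap between the groups, H2-Ab1 being the exception. WT thymus 2 was the lowest sample for each of the genes named here, Cd74 included, the invariant chain, which was 13.28, 12.25 and 13.67 in WT thymus and 14.33, 14.59 and 14.10 in PTL.

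The class II chain genes are known to share a CCAAT element that is read with Ciita, so the promoters of a few are shown. They come from RefSeq on GRCm38.p6, as the 150 bases before the start of the gene on its own strand. Capitals mark ATTGG and its reverse complement CCAAT, searched on both strands. H2-Eb1 lies at chr17:34305717-34305866 (plus strand), H2-Aa at chr17:34287824-34287973 (minus strand) and H2-Ob at chr17:34238755-34238904 (plus strand).
H2-Eb1: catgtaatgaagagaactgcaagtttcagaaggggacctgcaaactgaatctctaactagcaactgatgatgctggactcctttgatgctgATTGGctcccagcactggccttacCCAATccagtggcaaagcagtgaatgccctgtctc
H2-Aa: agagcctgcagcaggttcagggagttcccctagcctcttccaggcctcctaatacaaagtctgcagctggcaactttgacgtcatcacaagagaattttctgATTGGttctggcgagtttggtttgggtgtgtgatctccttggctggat
H2-Ob: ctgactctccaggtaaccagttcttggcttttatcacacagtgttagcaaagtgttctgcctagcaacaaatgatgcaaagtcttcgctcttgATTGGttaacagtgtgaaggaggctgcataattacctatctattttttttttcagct
In the 250 bases before the start, 7 of the 9 genes of the list found in the promoter table held the motif in at least 1 promoter, against 37.5% of all 27025 genes in the table and 33.8% of its 32851 promoters. Ctss and Ifi30, which encode no class II chain, did not hold it. The match of letters is a description and no evidence of binding.

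Genes of lymph node stroma were higher in PTL. Of 18 chemokine genes tested, 8 were higher and 2 lower, and of 15 genes of lymphoid stroma and lymphotoxin signaling 13 were higher and none lower, with medians of 0.97 and 1.97. Against GIT2KO ILN, 4 of the 18 were lower and none higher, and 1 of the 15 was higher and none lower. Over all transcripts 1.93% were lower and 2.4% higher than in ILN. Cxcl13, which draws B cells into follicles, was 12.15, 12.92 and 12.75 in PTL and 8.62, 6.73 and 8.10 in WT thymus, a difference of 4.79 (SE 0.36, adjusted p = 1.03e-10). Ccl19, the T zone chemokine, was 12.41, 12.90 and 11.83 against 8.49, 7.76 and 9.04, a difference of 3.95 (SE 0.32, adjusted p = 6.35e-10). Ccl21a, its partner, which the thymic medulla also makes, was 13.40, 13.68 and 13.31 against 11.41, 10.60 and 12.65 (1.91), with near-identical copies that the probes may not separate. The receptors of these ligands were higher too, Cxcr5 by 2.80 at its brightest probe, though another of its probes read -0.80, and Ccr7 as given above. Cxcr4, the receptor of Cxcl12 on thymocytes, was lower (-0.85), and Cxcl12 did not pass at its brightest probe (0.38, adjusted p = 0.189), while its other probes read 1.24 and 1.44. Tnfsf13b, the B cell survival factor BAFF, rose by 3.10, clusterin (Clu), abundant in follicular dendritic cells, by 3.47, lymphotoxin alpha (Lta) by 1.80, and the BMP antagonist Grem1 by at least 11-fold.

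Genes of blood and lymph vessels were higher too. Of 16 high endothelial venule and endothelial genes 13 were higher and none lower (median 1.22), and of 9 lymphatic endothelial genes 7 were higher and none lower (median 1.77). Glycam1, a mucin-like ligand of L-selectin made by high endothelial venules, was 11.64, 12.14 and 12.52 in PTL and 5.65, 5.37 and 7.43 in WT thymus, a difference of 5.95 (SE 0.35, adjusted p = 1.44e-12) that was 6.59 without WT thymus 3. Madcam1, the addressin for the gut-homing integrin, was 6.88, 7.76 and 7.5 against 5.0, 4.84 and 4.98, a rise of at least 3.94-fold from undetected. Lyve1, the hyaluronan receptor of lymphatic endothelium, was 9.91, 9.20 and 8.80 against 4.64, 4.90 and 4.65, at least 14.9-fold higher. The lowest PTL exceeded the highest WT thymus for each of the 3. Prox1, the master factor of lymphatic identity, was at least 2.09-fold higher, and Reln, a secreted glycoprotein found in lymphatics, rose by 2.96. Collagen and matrix genes were higher in 15 of 16 tested (median 1.94), among them Col1a1, at least 5.79-fold, Sparc (2.57) and Bgn (2.31). Complement and Fc receptor genes were higher in 7 of 9 and lower in none (median 1.97), led by the C1 inhibitor Serping1 (3.18) and complement factor Cfb (3.09).

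Genes of node sinus macrophages were among those with the largest rises. Cd209b, a lectin of marginal zone and medullary sinus macrophages known as SIGN-R1, was 12.12, 11.33 and 10.42 in PTL and 4.66, 4.67 and 4.59 in WT thymus, at least 59.2-fold higher at its brightest probe, and its other probes had fitted differences of 4.19 and 6.10. Marco, a scavenger receptor, was 10.49, 10.69 and 10.12 against 4.98, 4.56 and 4.80, at least 32.7-fold higher. Siglec1, the sialoadhesin of subcapsular sinus macrophages, was 9.56, 9.65 and 9.58 against 5.14, 4.73 and 6.24, a difference of 4.23 (SE 0.40, adjusted p = 6.58e-09). WT thymus had no detected signal for the first 2 of these genes. Over the whole list of 21, however, 12 were higher and 1 lower (median 1.06), so not all macrophage genes moved. Against GIT2KO ILN, 3 of the 21 were lower and 1 higher, where 1.93% and 2.4% of all transcripts were. The haptoglobin-hemoglobin receptor Cd163 was lower, at 5.08, 4.72 and 7.38 against 7.5, 8.39 and 9.16 (-2.62), with PTL 3 near the lowest WT thymus and a difference of -3.45 without PTL 3. The tissue macrophage genes Adgre1 (0.39, adjusted p = 0.45) and Vcam1 (0.01, adjusted p = 0.979) did not pass. Other leading genes outside the lists were Clec4g, a lectin of sinusoidal and node endothelium, at 9.91, 10.02 and 8.48 in PTL and undetected in WT thymus (at least 16.8-fold higher), and Cd55, which protects cells from complement, between 8.87 and 10.01 and likewise undetected in WT thymus (at least 18.7-fold). Serpina10, a protease inhibitor of the clotting system, rose by 4.92. Dendritic cell genes were higher in 9 of 16 and lower in none, with the lineage factors Irf8 (1.17) and Zbtb46 (1.32) among them. Against GIT2KO ILN 2 of the 16 were lower and none higher, with a median of -0.59.

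**Figure D2:**
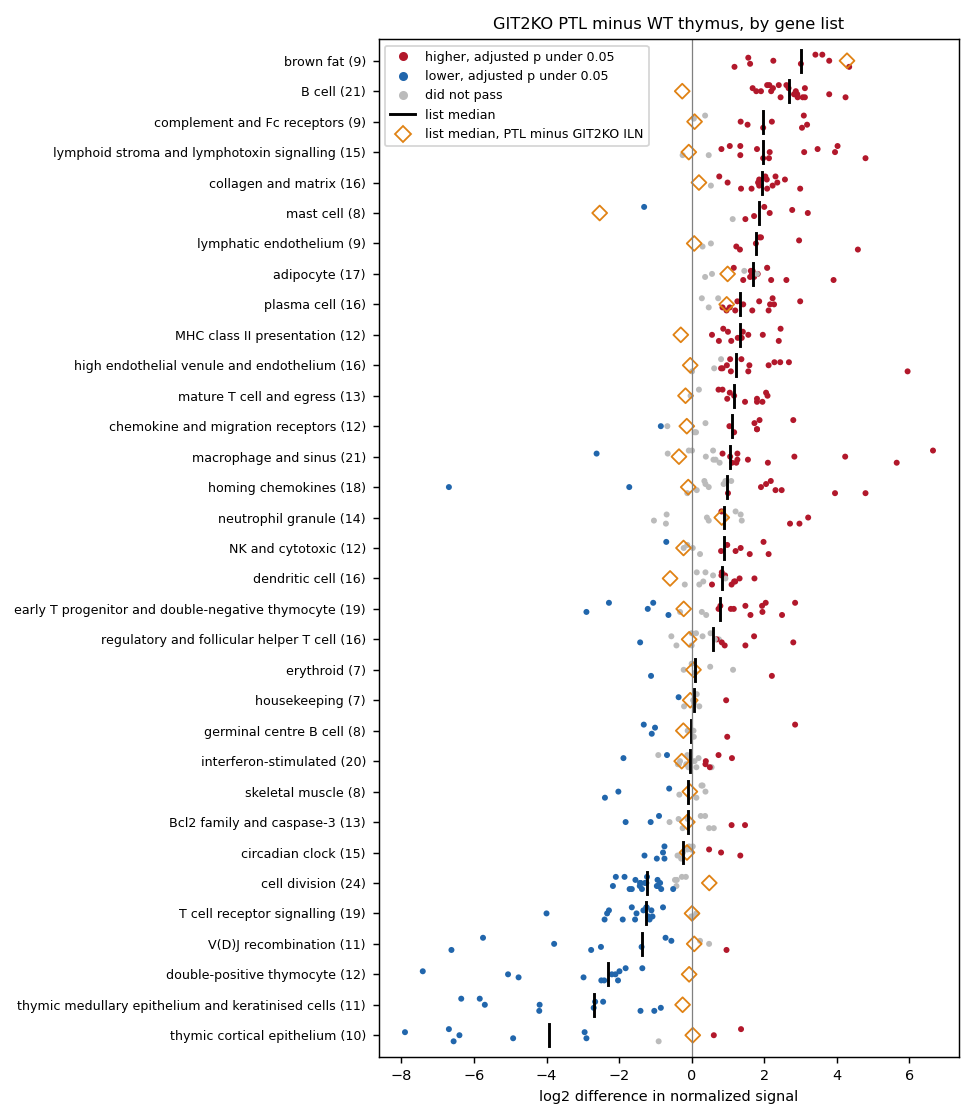
Log2 differences between GIT2KO PTL and WT thymus for the tested members of 33 gene lists (points, number of genes in brackets, colored by the limma call), with the list median as a bar and the median of PTL minus GIT2KO ILN as an open diamond. Thymocyte and thymic epithelial lists lie to the left and B cell and stromal lists to the right, while nearly all diamonds lie near 0, with brown fat, mast cell, adipocyte and plasma cell lists farthest from it.

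Cell division genes were lower in PTL in 19 of 24 tested and higher in none, with a median of -1.24. Top2a, the topoisomerase that untangles replicated DNA, was 8.81, 8.86 and 8.75 in PTL and 10.80, 10.63 and 9.94 in WT thymus, a difference of -1.65 (SE 0.36, adjusted p = 0.000597). Cdc20, the activator of the anaphase ligase, was 9.51, 9.49 and 10.14 against 11.44, 11.57 and 10.79, a difference of -1.55 (SE 0.26, adjusted p = 3.01e-05), and of its other 3 probes 2 were lower and 1 did not pass (-0.90, adjusted p = 0.0625). WT thymus 3 was the lowest thymus for both and came nearest to the PTL. The mitotic kinases Aurka (-1.85) and Plk1 (-1.37) and the kinesin Kif11 (-2.09) were lower too, whereas the helicase subunits Mcm3, Mcm4 and Mcm5 and the clamp Pcna did not pass, with differences between -0.42 and -0.16. Cdk1, the kinase of mitotic entry, was lower (-1.25), a call lost without WT thymus 1 or 2. Against GIT2KO ILN the same 24 genes had a median of 0.49 with 1 higher and none lower.

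Many genes of late cell division are known to be switched on through a CHR element, TTTGAA, close to their start. The 150 bases before the start are shown on the strand of each gene for Cdc20 (chr4:118437344-118437493, minus strand), Cdk1 (chr10:69352913-69353062, minus strand) and Top2a (chr11:99024190-99024339, minus strand) from RefSeq on GRCm38.p6, with capitals for TTTGAA or its reverse complement TTCAAA.
Cdc20: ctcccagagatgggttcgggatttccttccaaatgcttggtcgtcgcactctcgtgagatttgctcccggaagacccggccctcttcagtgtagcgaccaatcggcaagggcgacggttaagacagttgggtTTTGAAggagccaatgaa
Cdk1: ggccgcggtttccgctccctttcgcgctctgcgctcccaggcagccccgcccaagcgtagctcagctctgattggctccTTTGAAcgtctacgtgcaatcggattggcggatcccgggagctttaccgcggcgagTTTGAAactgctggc
Top2a: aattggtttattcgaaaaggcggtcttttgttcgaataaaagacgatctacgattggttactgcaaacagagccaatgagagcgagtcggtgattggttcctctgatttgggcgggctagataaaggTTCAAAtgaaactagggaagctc
The motif was present in the 250 bases before the start for 7 of the 22 list genes with a promoter in the table, against 18.3% of all genes in the table and 16% of its promoters. The genes shown are among these 7, whereas Aurka and Plk1 did not hold the motif. Both motifs are short and common, and no relation between them and the size of a difference was tested.

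To set the lobes against a node as a whole, transcripts were taken that separate a node from a thymus in samples that share no array with PTL or WT thymus. GIT2KO ILN and GIT2KO thymus differed in 44.4% of the transcripts, and by over 4-fold for 476 transcripts higher in ILN and 385 lower. Of the 476, 441 (92.6%) were also higher in PTL than in WT thymus and none lower, where 22.8% of all transcripts were higher, with a median of 1.87. Of the 385, 329 (85.5%) were lower, where 24.4% of all were, with a median of -2.10. PTL 1 and 2 share animals with the GIT2KO nodes and thymi, so the animals, though not the arrays, are partly the same. The other 34 called members of the second set went the other way, higher in PTL than in WT thymus. They included Ucp1 (4.34), Fabp3 (3.60), Cidea (3.79) and Thrsp (3.91), all genes of fat. Without WT thymus 3 these differences were 3.36, 2.49, 2.43 and 3.28. Hp, the hemoglobin-binding protein haptoglobin, read 4.18, or 3.46 without WT thymus 3, and hemoglobin genes were in the same set.

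**Figure D3:**
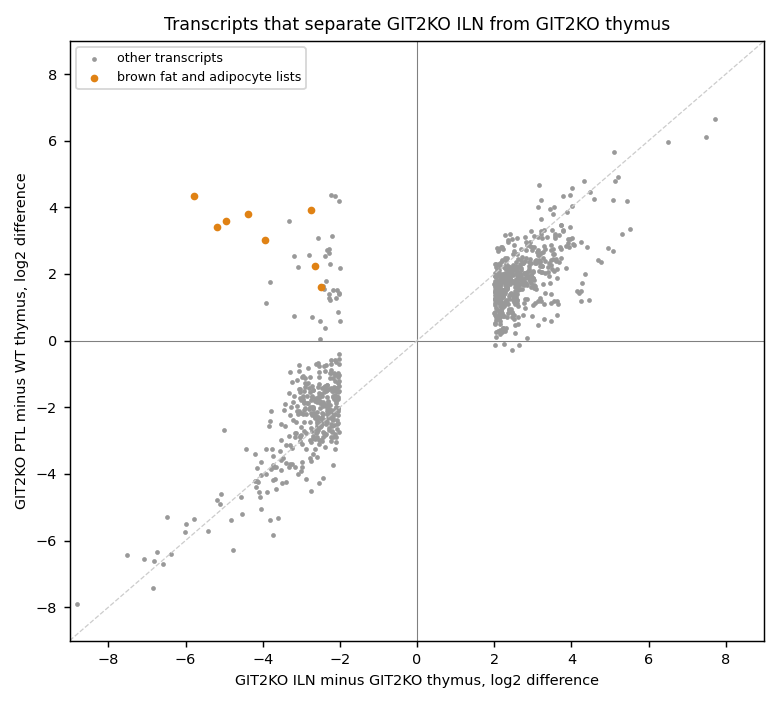
Each point is a transcript that differed by over 4-fold between GIT2KO ILN and GIT2KO thymus (x axis, log2 difference), set against PTL minus WT thymus (y axis, log2 difference), with the brown fat and adipocyte lists in orange. Of 476 transcripts on the right 441 were called higher in PTL, and of 385 on the left 329 were called lower, while the 34 called higher lie at the upper left with the fat genes.

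Fat genes set PTL apart from both the WT thymus and the ILN. All 9 brown fat genes tested were higher in PTL than in WT thymus, with a median of 3.01, and all 9 were higher than in GIT2KO ILN, with a median of 4.28, where only 2.4% of all transcripts were higher. The list held 13 genes, of which Dio2, Prdm16 and Ckmt2 were below the detection filter and Otop1 had no probe under its symbol. Ucp1, the uncoupling protein of brown fat, was 11.89, 10.10 and 10.63 in PTL and 6.38, 8.66 and 4.58 in WT thymus, a difference of 4.34 (SE 0.59, adjusted p = 2.07e-06). It was 4.60, 4.66 and 4.56 in the GIT2KO ILN, undetected in each, and 10.64, 11.27 and 9.27 in the GIT2KO thymi. PTL and GIT2KO thymi therefore overlapped, WT thymi were spread over a wide range and ILN had no detected signal. Cox7a1, a cytochrome oxidase subunit of muscle and brown fat, was 12.00, 10.08 and 10.08 in PTL and 7.74, 8.72 and 5.49 in WT thymus (3.41), and Cidea, a lipid droplet protein, 12.63, 11.20 and 10.18 and 8.40, 9.42 and 4.82 (3.79). Without WT thymus 3, the WT sample lowest in fat genes, the difference of Ucp1 was 3.36, of Cox7a1 2.50 and of Cidea 2.43, and without WT thymus 2, the highest, they were 5.4, 4.11 and 4.73. The mean log2 signal over the 9 genes was 10.59, 8.93 and 9.77 in PTL 1 to 3, 7.22, 8.16 and 5.67 in WT thymus 1 to 3, and 5.28 to 6.17 in the ILN.

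Genes of fat cells in general were higher in PTL in 12 of 17 tested and lower in none, with a median of 1.68, and 3 of them were higher than in GIT2KO ILN. Their mean log2 signal was 10.21, 9.24 and 7.95 in PTL 1 to 3, so that the lobes differed widely, and 7.76, 7.93 and 6.46 in the WT thymi. Thrsp, a regulator of fat synthesis, was 11.60, 10.74 and 7.77 in PTL and 6.26, 7.26 and 4.85 in WT thymus, a difference of 3.91 (SE 0.80, adjusted p = 0.000277) that was 5.05 without PTL 3. Lpl, the lipase that frees fatty acids from lipoproteins, was 12.85, 11.39 and 11.93 against 10.58, 10.34 and 8.68 (2.19). Adipoq, the hormone adiponectin, was 11.42, 10.62 and 8.90 against 9.11, 9.12 and 4.88, so that PTL 3 overlapped the thymi, and its call was lost without PTL 1, PTL 2 or WT thymus 3 (1.20 without the last). Against GIT2KO thymus, where 19.3% of all transcripts were higher in PTL and 21.5% lower, none of the 17 adipocyte genes passed and 1 of the 9 brown fat genes was higher. The test of interaction between PTL minus WT thymus and GIT2KO ILN minus GIT2KO thymus was passed by 18% of all transcripts and by 9 of the 9 brown fat genes. The part of these fat transcripts in the other differences was not tested.

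**Figure D4:**
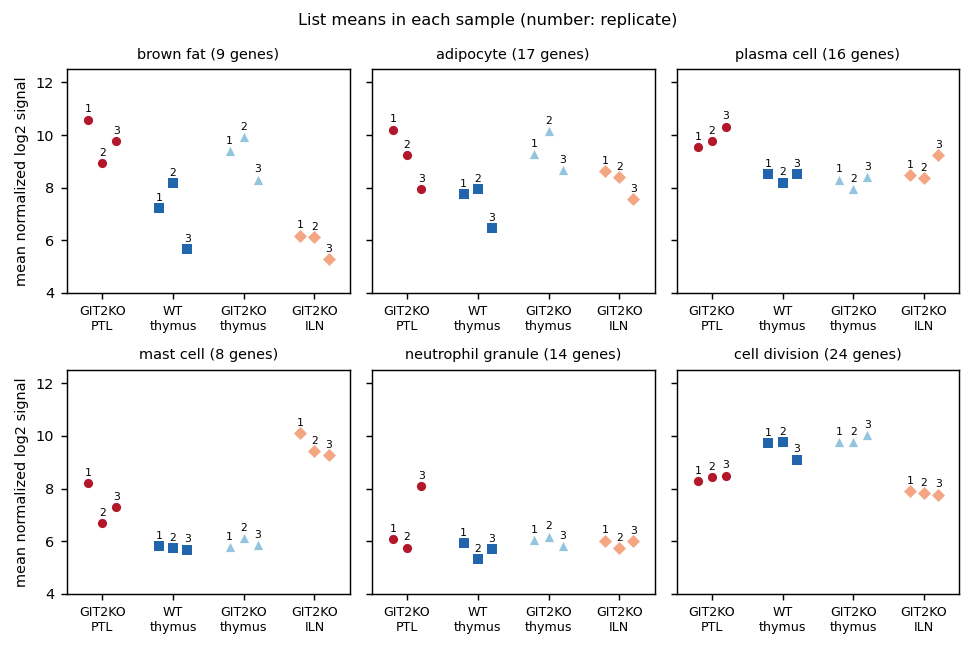
Mean normalized log2 signal of 6 gene lists in each sample of GIT2KO PTL, WT thymus, GIT2KO thymus and GIT2KO ILN, with the replicate number above each point. Brown fat genes are high in PTL and GIT2KO thymus and low in the ILN and in WT thymus 3, plasma cell genes are highest in PTL, mast cell genes are highest in the ILN, and the neutrophil mean is high in PTL 3 alone.

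Plasma cell genes were also higher in PTL than in either. Of 16 tested, 13 were higher in PTL than in WT thymus and none lower, with a median of 1.34, and 9 were higher than in GIT2KO ILN. Tnfrsf17, the plasma cell survival receptor BCMA, was 7.95, 8.82 and 9.17 in PTL and 5.90, 5.59 and 5.51 in WT thymus, a difference of 2.99 (SE 0.36, adjusted p = 4.05e-07). In the GIT2KO ILN it was 5.37, 5.26 and 7.03, so that PTL differed from ILN by 2.76 (SE 0.36, adjusted p = 3.98e-05). Derl3, a factor of protein quality control in secretory cells, was 7.05, 7.69 and 8.86 against 5.88, 5.43 and 5.60 in WT thymus (2.23). PTL 3 was the highest lobe for each of these genes, and all lobes were above all WT thymi. Xbp1, the factor that expands the secretory apparatus, rose by 1.20, and the signal was high in both organs. Bhlha15, another factor of secretory cells, was 8.21, 8.69 and 9.55 in PTL against 6.2, 6.06 and 6.40 in WT thymus and 5.72, 5.31 and 7.35 in ILN, 2.69 higher than in ILN. Leaving out each PTL or ILN sample in turn left 7 to 10 of the 16 genes higher than in ILN.

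Mast cell genes placed PTL between the organs. Of 8 tested, 6 were higher in PTL than in WT thymus and 1 lower, with a median of 1.86, yet 6 were lower than in GIT2KO ILN, with a median of -2.54, where 1.93% of all transcripts were lower. Mcpt4, a chymase of connective tissue mast cells, was 9.45, 7.26 and 6.83 in PTL, 4.65, 4.70 and 4.60 in WT thymus, undetected in each, and 11.33, 10.68 and 10.80 in ILN. Tpsab1, a tryptase, was 7.94, 7.20 and 7.74 in PTL, 4.75, 5.0 and 4.83 in WT thymus and 11.37, 9.65 and 9.65 in ILN. For both, every lobe was above every WT thymus and below every ILN, and PTL 1 was the highest lobe. Mcpt4 was at least 5.45-fold higher than in WT thymus, or at least 3.13-fold without PTL 1. Hdc, the enzyme that makes histamine, went the other way (-1.31 against WT thymus), a call lost without PTL 1, PTL 2 or WT thymus 3.

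In all, 362 transcripts were higher and 291 lower in PTL than in GIT2KO ILN. The counts depended on the samples: without 1 of the ILN they were 159 to 212 and 146 to 190. Among the lowest were Hox genes, whose factors record the position of a cell along the body. Hoxc9 was 4.61, 4.84 and 4.68 in PTL and 4.69, 4.58 and 4.60 in WT thymus, undetected in both, and 7.47, 7.38 and 7.56 in ILN, at least 4.26-fold lower than in ILN. Hoxc6 was 7.31, 5.62 and 6.35 in PTL, 4.93, 4.85 and 5.08 in WT thymus and 9.69, 9.77 and 9.42 in ILN, a difference from ILN of -3.20 (SE 0.31, adjusted p = 8.48e-07). The lobes lay at the level of the thymus for the first and between thymus and node for the second. Of the 23 Hox genes tested, looked up after these 2 were seen, 5 were lower in PTL than in GIT2KO ILN, namely Hoxb7 (-2.18), Hoxc6, Hoxc9, Hoxc10 (-1.24) and Hoxd10 (-1.35), and none higher. Over all transcripts 1.93% were lower and 2.4% higher. The 5 include the 2 genes that prompted the search. Hoxa5 was 9.19, 8.29 and 8.21 in PTL and did not pass against ILN (0.62, adjusted p = 0.167), though it was higher than in WT thymus (2.16).

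Most transcripts that differed by genotype in other organs differed the same way in PTL minus WT thymus, where tissue and genotype are mixed. Of those that differed between GIT2KO and WT in ILN, mesenteric lymph nodes and spleen alike, none of which share an array with PTL or WT thymus and in which 2.55%, 2.2% and 25.2% of all transcripts were called, 33 were higher in GIT2KO and 78 lower. In PTL minus WT thymus 25 of the 33 (75.8%) were higher, where 22.8% of all transcripts were, and 63 of the 78 (80.8%) lower, where 24.4% were, with medians of 1.16 and -1.0 and none called the other way. Thumpd1, a factor of tRNA modification, was 4.83, 5.56 and 5.02 in PTL and 10.08, 9.85 and 9.94 in WT thymus (-4.82). Ctse, the protease cathepsin E, was 10.52, 10.64 and 10.77 against 7.41, 6.88 and 6.83 (3.60). Mak16, a ribosome assembly factor, was 5.01, 4.89 and 8.6 against 9.43, 9.18 and 9.44, so that PTL 3 lay near the WT thymi and PTL 1 and 2 far below, with a difference of -4.40 without PTL 3 and -3.18 with it. GIT2KO thymus minus WT thymus read -5.21, 3.57 and -4.38 for these genes. It was small for some other members with large differences. Fxyd2 read 4.05 in PTL minus WT thymus but 0.23 in GIT2KO thymus minus WT thymus, Diras2 -4.02 but -0.31, and Arhgap44 -2.61 but 0.004. How much of each difference came with the genotype was not tested. Trim30a, an interferon-induced gene, was undetected in PTL at 4.59, 4.57 and 4.61 against 9.01, 7.5 and 8.89.

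A list of 18 genes was singled out for the lobes on these same samples, so their calls are no independent evidence, and 17 of them were tested. In limma, 12 were higher, 4 lower and 1 not called. Btla, an inhibitory receptor of lymphocytes, rose by 1.96, the proton channel Hvcn1 by 1.85, the leukotriene-degrading enzyme Cyp4f18 by 2.10 and the presenilin Psen2 by 1.21, and the chromatin protein Hmgb2 was lower (-1.38). None of the 17 passed between PTL and GIT2KO ILN, again a count near the 4.34% of all transcripts.

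Lists of clock, cell death, interferon and housekeeping genes had medians near 0. Of 15 circadian clock genes 3 were higher and 5 lower, among them Arntl, the core activator (-1.30), and Dbp, a clock output factor (-0.96), with a median of -0.24. Of 13 genes of the Bcl2 family and caspase-3, 2 were higher and 3 lower, with the death promoter Bmf at -1.82 and the survival factor Bcl2l1 at -1.13. Of 20 interferon-stimulated genes 5 were higher and 2 lower, with a median of -0.06. Of 7 housekeeping genes 1 was higher, the lysosomal enzyme Gusb at 11.04, 11.28 and 11.96 in PTL against 10.33, 10.50 and 10.60 (0.95), and 1 was lower, the adaptor Ywhaz (-0.36), with a median of 0.07. Gapdh (0.04) did not pass, nor did Actb at its brightest probe (-0.21), whose other 4 probes disagreed, between -1.43 and 1.30.

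Some samples carried genes of other organs or cells. Pth, parathyroid hormone, was undetected in PTL at 4.64, 4.61 and 4.50 and 12.52, 11.20 and 5.99 in WT thymus 1 to 3, at least 23-fold lower, and Chga, a protein of endocrine granules, was undetected in PTL at 4.54, 4.61 and 4.57 against 10.32, 9.21 and 5.02, at least 6.99-fold lower. WT thymus 1 and 2 were thus high for both, and without WT thymus 1 the bounds were 9.27-fold for Pth and 3.33-fold for Chga. Pth was also detected in all 3 GIT2KO thymi, with a mean of 8.22. Tg, thyroglobulin, was 5.56, 5.4 and 8.41 in PTL, high in PTL 3, and undetected in WT thymus at 4.94, 4.73 and 4.88. It was at least 2.08-fold higher, or at least 1.06-fold without PTL 3. Neutrophil granule genes had a mean of 8.09 in PTL 3 against 6.09 and 5.75 in PTL 1 and 2 and 5.33 to 5.92 in the WT thymi, and 4 of 14 were called higher, or 2 without PTL 3. Chil3, a lectin of myeloid cells, was 5.10, 4.71 and 12.34 in PTL and undetected in WT thymus, at least 3.95-fold higher, a call lost without PTL 3, where no bound remained, and also without each of the 3 WT thymi. Klk1 and Aqp5, genes of salivary glands, were lower in PTL (-2.72 and -1.39), the first a call lost without WT thymus 1. Without PTL 3 the same counts as with it were obtained for the B cell (21), double-positive thymocyte (12), medullary epithelial (11), plasma cell (13) and brown fat (9) lists, and 16 in place of 19 cell division genes were lower.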

How the data were processed

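Total RNA of whole organs was measured on Illumina MouseRef-8 arrays, 3 samples in each of 9 groups, with a second array for 4 samples. The deposited signals are bead intensity values exported by the authors from GenomeStudio (2011.1 in the submitters' processing notes), not normalized, each with a deposited detection p-value against negative control beads. The authors also deposited a score for each probe, the log10 signal z-transformed within each array, which was used as an alternative only.

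Here the intensities of all 31 arrays were background-corrected with the detection p-values, quantile-normalized and put on the log2 scale with neqc (offset 16) of limma 3.58.1 in R 4.3.3, and repeat arrays were averaged. Of 25697 probes, 15053 with a mean detection p under 0.05 in at least 3 samples were tested in 1 linear model of 9 groups (lmFit and eBayes with trend), and a call needs a Benjamini-Hochberg adjusted p under 0.05. Where several tested probes report a gene, the brightest on average stands for it, and 10341 genes were tested. Undetected means a detection p of 0.05 or above. Where a group was undetected in all its samples, its mean was replaced, on each array, by the higher of its own value and the lowest detected signal, and the fold is given as a lower bound. The pipeline was tested on simulated data. The number of arrays limits the precision.

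Probe symbols came from the platform annotation, updated through gene identifiers: 23978 probes had 1 symbol and 1719 none. Named genes are Git2, up to 15 with the largest differences in each direction, defining and most changed members of each list, the genes singled out for the lobes, and the leading genes of the genotype and interaction comparisons. Hox genes and Bhlha15 were named after their values were seen. The members and lists were chosen with earlier results of these data known. Alternatives covered background correction, scaling, filters, samples in the fit, repeat arrays, blocks, array weights, the methods' t-test and leaving out each replicate. Promoters are RefSeq windows of GRCm38.p6.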

Additional observations from a re-analysis of the deposited data

Results flagged for a closer look

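The difference between PTL and WT thymus departed from that between GIT2KO ILN and GIT2KO thymus, by limma's test of the interaction, for 2714 transcripts, 18% of those tested (1368 upwards, 1346 downwards). The first pair of tissues differs in genotype as well as in organ, and the interaction is the sum of PTL minus GIT2KO ILN and GIT2KO thymus minus WT thymus. The fitted departures upwards were 10.12 for Ucp1, 8.59 for Cox7a1, 8.55 for Fabp3, 8.18 for Cidea and 6.95 for Cox8b on the log2 scale. Both parts were upwards in these fat genes, with 6.27 and 3.85 for Ucp1 and 4.28 and 2.67 for Cox8b. The fitted departures downwards were -5.86 for Thumpd1, -4.01 for Trim30a, -3.91 for Wnt8b, -3.44 for Zfp52 and -3.31 for Twistnb. In these the thymus genotype difference was the larger part, at -5.21, -3.86, -3.86, -2.80 and -3.03, and PTL minus GIT2KO ILN was -0.65, -0.15, -0.04, -0.64 and -0.27. Fitted values have no order where a group is not above background: Ucp1 and Fabp3 were undetected in GIT2KO ILN, where PTL were at least 44.9-fold and 34.3-fold higher, Trim30a and Wnt8b in PTL, GIT2KO ILN and GIT2KO thymus, Thumpd1 in GIT2KO thymus and Twistnb in PTL.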

How the results depend on the processing

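No result reversed under any alternative run. The methods' t-test on the 6 samples, after Benjamini-Hochberg, called 1667 transcripts higher and 2208 lower in PTL, fewer than the 3430 and 3671 of limma, and 2932 and 3496 without adjustment. With array weights the interaction held for 4734 transcripts in place of 2714. Leaving out each replicate gave 2851 to 3477 higher and 3110 to 3550 lower, shares of 88% to 92.2% and 82.1% to 85.5% for the transcripts that separate ILN from thymus, 71.9% to 78.6% and 70.5% to 82.4% for the genotype transcripts, and 1848 to 3321 for the interaction. PTL and WT thymus came from different mice, so the replicate numbers do not pair them by animal. Among the 3 same-numbered pairs the deviations from the group means correlated at 0.22, -0.1 and 0.104, and among the others at -0.204 to 0.06. With so few samples these values cannot tell whether equal numbers share anything else. The replicate block on the 6 samples gave 2908 higher and 3057 lower. The animal as a random block gave 3455 and 3684. Of the named transcripts that were called, 1 to 27 lost their call under a given alternative. Neutrophil genes called higher fell from 4 to 2 without background correction, with the deposited scores, and without PTL 3, WT thymus 1 or WT thymus 3. Transcripts higher in PTL than in GIT2KO ILN numbered 246 to 390 without 1 of the PTL; the leave-outs of this comparison and of the lower-bound folds were chosen after seeing the data. Dim probes carry only lower bounds, and 585 probes tested were detected in neither group.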
